A study of Mus musculus with 24 samples.

Results

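Matricellular genes were followed across the left ventricles of 24 mice. They were 5 genes of the CCN family (Ccn1 to Ccn5) and 5 other secreted or matrix-bound proteins (Tnc, Postn, Spp1, Sparc and Tnxb). Members were all array probes whose gene symbol, in the platform's annotation or the authors' summary table, was one of these names or an older one (Cyr61, Ctgf, Nov, Wisp1, Wisp2). This took 31 of the 45281 probes, for 10 of the 20704 genes named. The rule is by name and uses no measured value, though the genes were proposed with earlier results of these data known.

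The series compares control mice with mice that lack EP4, a prostaglandin E2 receptor encoded by Ptger4, in the heart only, and is titled as a model of dilated cardiomyopathy. All mice were male and of mixed genetic background, and RNA from each left ventricle was hybridised to 1 Illumina BeadChip array. The 11 wild-type (WT) hearts had an ejection fraction (EF, the share of blood the ventricle expels per beat) of 71.4 to 86.1%. The 7 knockout hearts labelled high EF (KO high EF) had 45.9 to 76.4%, and the 6 labelled low EF (KO low EF) had 13.7 to 34%. Ages ran from 27 to 33.5 weeks. The labels name neither the promoter behind the deletion nor what the controls carried.

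Matricellular proteins are secreted into the extracellular matrix but serve less as scaffold than as signals: they bind integrins, proteoglycans and growth factors and tune how cells attach, migrate and lay down collagen. Most are scarce in the healthy adult heart and are known to be made during development, after infarction and under pressure overload, largely by fibroblasts, macrophages and stressed cardiomyocytes. Ccn1 and Ccn2 are textbook targets of the YAP and TEAD branch of the Hippo pathway, and Ccn2, Postn and Tnc are known targets of TGF-beta.

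Levels are log2 intensities after background correction and quantile normalization, on a scale whose array median was 6.77 and whose top was 16.04. Differences are log2 differences ± standard error from limma, with p-values adjusted over the 25425 probes kept. KO high EF replicate 11 stood apart, with a median correlation of 0.778 with the other arrays against 0.968 to 0.986 for the others, and the counts and calls of the members and gene lists that it moves are given with and without it. The cardiomyocyte marker Myl2 was bright in every heart (15.82 to 16.03). The targeted gene gave no check of the labels: its kept probe lay at 6.52 to 8.00 and differed from WT by -0.04 ± 0.14 in KO low EF (adjusted p = 0.901) and by 0.20 ± 0.13 in KO high EF (adjusted p = 0.338). In whole-ventricle RNA, a change in the number of cells of a type and a change in RNA per cell cannot be told apart.

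Of the 31 member probes, 22 passed the filter (above the array median in at least 6 arrays), and they cover 9 genes. The 9 probes left out were both of Ccn3, 5 of Tnc and 1 each of Ccn4 and Postn. Both kept Postn probes lay below the array median in all 11 WT hearts, so they passed through knockout hearts alone and had to differ. Postn is therefore described without a test, and counts are given also without its probes. Each gene is led below by its brightest kept probe, called probe 1.

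Against WT, 14 of the 22 member probes were higher in KO low EF and 0 were lower, where 12.1% of all kept probes were called higher and 12.3% lower. In KO high EF, 15 of 22 were higher and 0 lower, against 8.5% called higher and 5.9% lower among all kept probes. With both knockout groups averaged, 16 of 22 were higher (13.1% of all kept probes). Leaving out the Postn probes, the counts were 12, 13 and 14 of 20, and leaving out replicate 11 as well they were 15, 15 and 17 of 20. By probe 1, 7 of the 8 genes other than Postn rose in each comparison, where the shares of all measured genes called higher were 15.1% (KO low EF) and 10.7% (KO high EF). Ccn1 was the exception, and without replicate 11 all 8 rose in both. The median difference of those 8 probes was 1.69 for KO low EF and 1.33 for KO high EF, while the medians over all 14029 measured genes were 0.00459 and 0.00916. Both comparisons share the WT hearts. The array labels fall into 4 sets of 6 by a shared prefix, called chips here, although no label says that the prefix is the chip. Among the hearts of 1 chip, probe 1 of all 8 genes other than Postn was higher than WT in KO low EF on 3 of 3 chips. In KO high EF it was higher on 4 of 4 chips for all of these but Ccn1 (3 of 4). On chip 3 the only WT heart was replicate 6. The only knockout hearts on chip 1 were KO low EF replicate 4 and KO high EF replicate 8. KO high EF replicate 7 was the only heart of its group on chip 2. The within-chip differences thus rest on few hearts, and their spread was taken from all chips together. Of the 22 probes, 10 had every KO low EF heart above every WT heart (6.16% of all kept probes) and 7 had every KO high EF heart above (2.16%). Without the Postn probes these were 9 and 7 of 20.

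**Figure D1:**
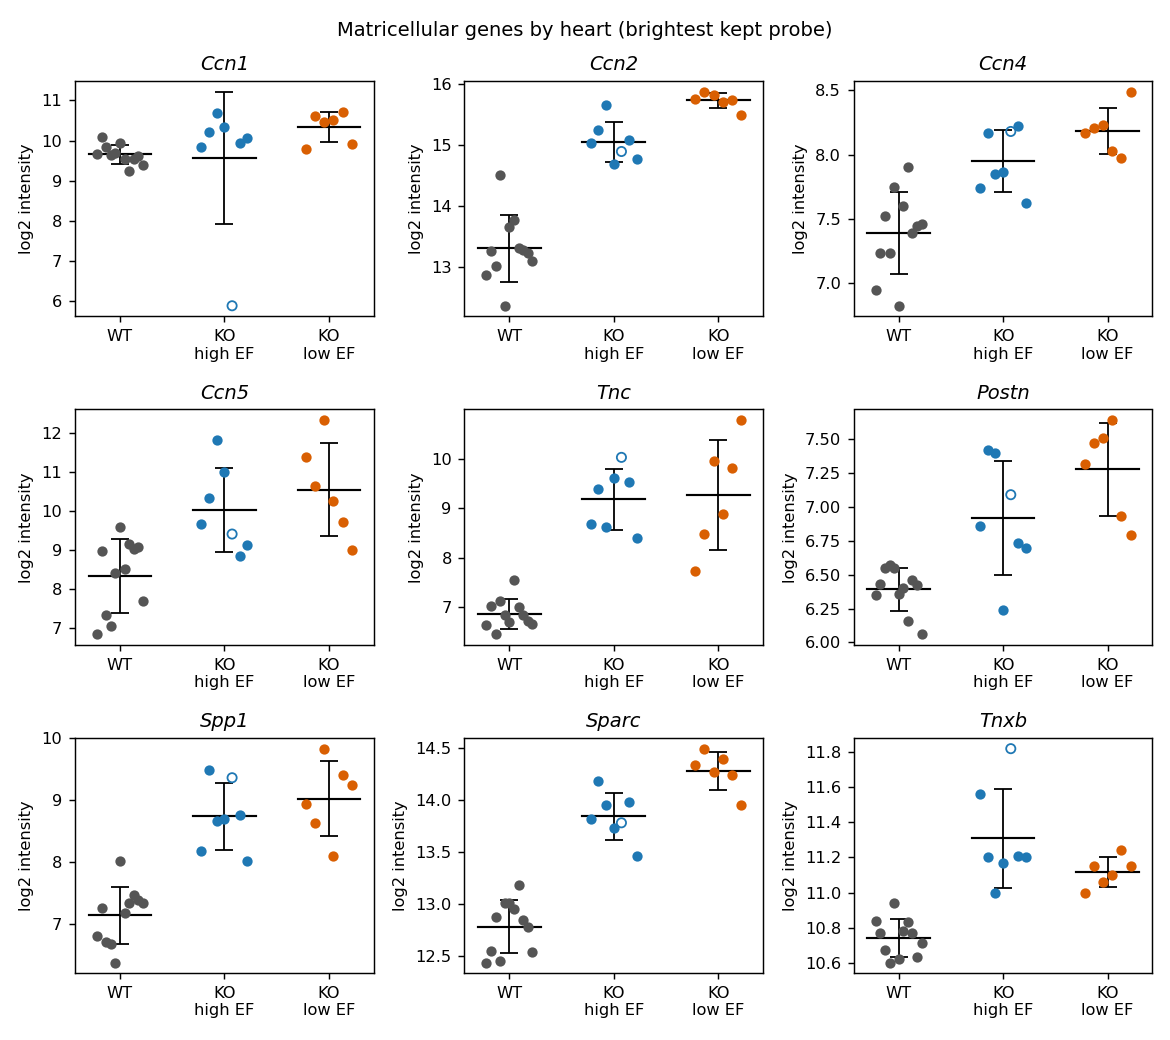
Log2 intensity (vertical axis) of probe 1 of 9 genes in each heart, by group (11 WT, 7 KO high EF, 6 KO low EF); lines and bars are mean and SD, and the open circle is KO high EF replicate 11. For Ccn2, Tnc, Spp1, Sparc and Tnxb every knockout heart lay above every WT heart, while Ccn5 overlapped and replicate 11 fell to 5.89 for Ccn1.

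Among the CCN genes, Ccn2 (connective tissue growth factor, which is linked to fibrosis and is made by stressed cardiomyocytes and fibroblasts) rose in both knockout groups and on both of its probes. Its probe 1 ran from 12.37 through a median of 13.27 to 14.51 in WT. In KO high EF it ran from 14.69 through 15.04 to 15.66, and in KO low EF from 15.50 through 15.76 to 15.88. On this probe WT overlapped with neither knockout group, the 2 knockout groups overlapped with each other, and the highest WT heart was replicate 4. On probe 2, all KO low EF hearts but 6 of 7 KO high EF hearts lay above every WT heart. There the lowest KO high EF heart was at 13.93 and the highest WT heart at 14.20.

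Ccn2 rose by 2.43 ± 0.20 in KO low EF (5.38-fold, adjusted p = 2.3e-09) and by 1.75 ± 0.19 in KO high EF (3.36-fold, adjusted p = 6.8e-07). Its second probe gave 2.50 ± 0.23 and 1.72 ± 0.22. Within the chips that hold both groups, probe 1 differed by 2.13 to 2.29 in KO low EF. In KO high EF it differed by 1.51 to 2.10, some of these with 1 heart on a side. KO low EF exceeded KO high EF by 0.68 ± 0.22, which did not pass (adjusted p = 0.104). It passed without WT replicate 4, where the difference was again 0.68 (adjusted p = 0.0349). With the chip as a fixed block it shrank to 0.48 ± 0.22 and did not pass (adjusted p = 0.439). The KO low EF hearts were close to the top of the scale, which normalization makes the same on every array; how far that limits this gap was not tested.

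Ccn1 (CYR61, an integrin ligand induced early by stretch and growth factors) changed less and its probes diverged. Probe 3 lay at 7.69 to 8.80 in WT (median 8.15), at 8.35 to 9.22 in KO high EF (median 8.88) and at 8.52 to 9.25 in KO low EF (median 8.96). It rose by 0.66 ± 0.16 in KO low EF (adjusted p = 0.0025) and by 0.50 ± 0.15 in KO high EF (adjusted p = 0.0246), with overlapping groups. The authors' deposited table of values, whose transformation is not stated, gave 0.39 and 0.29 for this probe. The KO high EF call did not hold when arrays were scaled to a common median (0.47, adjusted p = 0.175). It was also lost without KO high EF replicate 8, 9 or 10 (adjusted p = 0.0525, 0.0695 and 0.051).

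Probe 1 of Ccn1 was at 9.24 to 10.09 in WT, at 9.80 to 10.72 in KO low EF and at 5.89 to 10.69 in KO high EF. The 5.89 was KO high EF replicate 11, and the other 6 hearts of its group lay at 9.85 to 10.69. With that array, probe 1 of Ccn1 differed by 0.68 ± 0.43 in KO low EF (adjusted p = 0.31) and by -0.09 ± 0.41 in KO high EF (adjusted p = 0.918). Without it the differences were 0.68 ± 0.14 (adjusted p = 0.00031) and 0.53 ± 0.14 (adjusted p = 0.0075). Probe 2 did not pass, at 0.33 ± 0.13 and 0.37 ± 0.13.

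Promoter sequence is shown for Ccn1 because its known regulator TEAD has a short motif. RefSeq (GRCm38.p6) windows of 250 bases before to 50 after a gene start were found for 6 of the 10 members (9 windows: Ccn1, Tnc, Postn, Spp1, Sparc and Tnxb). Each was searched on both strands. The TEAD motif was GGAATG. The SMAD motif searched was CAGACA. For AP-1 it was TGANTCA. The TATA box was taken as TATAAA, and the SRF CArG box was searched as well. No matches overlap in the windows printed. Capitals mark the matches. The Ccn1 window, chr3:145649936-145650235 on the minus strand, holds a TEAD match on the reverse strand at -103 and a TATA match at -25 from the start.
Ccn1: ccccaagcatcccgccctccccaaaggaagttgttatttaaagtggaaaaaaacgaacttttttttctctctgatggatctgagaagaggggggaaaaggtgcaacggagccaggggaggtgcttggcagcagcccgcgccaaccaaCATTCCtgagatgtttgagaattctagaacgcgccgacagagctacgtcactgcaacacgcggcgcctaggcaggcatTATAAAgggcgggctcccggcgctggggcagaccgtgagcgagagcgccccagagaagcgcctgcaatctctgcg
Of 32544 mouse windows, 14.6% hold the TEAD motif and 13.6% the TATA motif, so these matches describe the letters and show no binding.

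Ccn5 (WISP2, a CCN protein without the C-terminal domain of its relatives) varied widely between hearts of 1 group. It ran from 6.83 through 8.50 to 9.57 in WT, from 8.84 through 9.66 to 11.81 in KO high EF and from 8.99 through 10.43 to 12.32 in KO low EF. The groups overlapped: 4 of 7 KO high EF and 5 of 6 KO low EF hearts lay above all WT hearts. It rose by 2.22 ± 0.50 in KO low EF (4.65-fold, adjusted p = 0.0013) and by 1.70 ± 0.47 in KO high EF (3.24-fold, adjusted p = 0.0153), with a wide standard error. Within chips the differences were all positive (0.99 to 2.33 and 1.02 to 2.15) and none passed.

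Ccn4 (WISP1, a target of Wnt signalling) was dimmer. Its probe 1 ran from 6.82 through 7.44 to 7.90 in WT, from 7.62 through 7.86 to 8.22 in KO high EF and from 7.97 through 8.19 to 8.49 in KO low EF. All KO low EF hearts were above all WT hearts, and 3 of 7 KO high EF hearts were. Ccn4 rose by 0.80 ± 0.13 (adjusted p = 5.4e-05) and by 0.56 ± 0.13 (adjusted p = 0.0033). The differences were 0.35 and 0.23 on the authors' deposited table of values, and 0.69 to 1.30 and 0.07 to 1.04 within chips.

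Ccn3 (NOV) was not measured above background: both probes lay at or below the array median in all 24 hearts, at 5.96 to 6.77 and at 5.78 to 6.48. No fold is given for it.

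Tenascin C (Tnc, a large hexameric glycoprotein that loosens cell attachment and appears at sites of matrix remodelling) went from near the array median to clearly above it. Probe 1 ran from 6.46 through 6.84 to 7.56 in WT, where 6 of 11 hearts exceeded the array median. In KO high EF it ran from 8.41 through 9.40 to 10.03, and in KO low EF from 7.73 through 9.35 to 10.78. Every knockout heart was above every WT heart, and the KO low EF hearts spread more widely than the KO high EF hearts.

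Tnc rose by 2.40 ± 0.32 in KO low EF (5.29-fold, adjusted p = 2.1e-06) and by 2.31 ± 0.30 in KO high EF (4.96-fold, adjusted p = 7.5e-06). Probe 2 of Tnc gave 2.16 ± 0.31 and 2.29 ± 0.30. The 2 knockout groups did not differ beyond error for probe 1 (0.09 ± 0.35, adjusted p = 0.927). The other 5 probes on the array were not kept; one of them is named Tnc by the platform only. On the authors' deposited table of normalized values, on its own unstated scale, the Tnc differences were 1.29 and 1.16, and on the chips that hold both groups they were 1.97 to 3.36 and 1.67 to 2.59.

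The Tnc window shown here, chr4:64046887-64047186 on the minus strand, holds 2 SMAD matches (-71 and 39 from the start) and a TATA match at -205. It is printed because Tnc is a known TGF-beta target.
Tnc: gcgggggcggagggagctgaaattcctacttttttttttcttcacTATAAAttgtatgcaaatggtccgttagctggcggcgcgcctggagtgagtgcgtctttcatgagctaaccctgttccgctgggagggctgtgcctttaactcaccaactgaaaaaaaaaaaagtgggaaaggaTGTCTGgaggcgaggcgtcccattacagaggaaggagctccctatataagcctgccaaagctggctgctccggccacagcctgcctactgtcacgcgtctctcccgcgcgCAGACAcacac
The SMAD motif is in 20.9% of all windows.

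Periostin (Postn, a fasciclin-domain protein that marks activated fibroblasts and promotes collagen crosslinking) was dim. Probe 1 ran from 6.06 through 6.42 to 6.57 in WT, from 6.24 through 6.86 to 7.42 in KO high EF and from 6.79 through 7.39 to 7.64 in KO low EF. All KO low EF and 6 of 7 KO high EF hearts were above all WT hearts; KO high EF replicate 10 was within the WT range. WT values this low are at the level of the Ccn3 probes that were not kept, so no fold or test is given for Postn.

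The Postn window chr3:54360857-54361156 on the plus strand is shown for its TATA match, at -26 from the start; the other Postn window had none of the motifs.
Postn: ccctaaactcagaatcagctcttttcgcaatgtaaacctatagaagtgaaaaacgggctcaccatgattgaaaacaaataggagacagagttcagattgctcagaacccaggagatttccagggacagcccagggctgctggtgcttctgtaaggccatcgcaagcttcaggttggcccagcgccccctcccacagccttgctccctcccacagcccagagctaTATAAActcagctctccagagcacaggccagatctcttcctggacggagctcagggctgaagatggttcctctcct

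Osteopontin (Spp1, a phosphoprotein that binds integrins and CD44 and is abundant in macrophages of injured tissue) has 1 probe, named by the authors' table only. It ran from 6.37 through 7.25 to 8.02 in WT, from 8.02 through 8.70 to 9.48 in KO high EF and from 8.10 through 9.08 to 9.83 in KO low EF. No knockout heart was below the highest WT heart, though the lowest KO high EF heart (8.0244) and the highest WT heart (8.0202) nearly met. Spp1 rose by 1.89 ± 0.25 (3.7-fold, adjusted p = 2.2e-06) and by 1.60 ± 0.24 (3.04-fold, adjusted p = 3.6e-05). Within chips it differed by 0.92 to 2.47 in KO low EF and by 0.66 to 2.30 in KO high EF, and the authors' deposited table of values gave 0.96 and 0.77.

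SPARC (osteonectin, a collagen-binding protein needed for collagen fibril assembly) was bright in all hearts. Probe 1 ran from 12.44 through 12.85 to 13.19 in WT, from 13.46 through 13.82 to 14.18 in KO high EF and from 13.95 through 14.30 to 14.49 in KO low EF. WT did not overlap with either knockout group. Sparc rose by 1.49 ± 0.12 in KO low EF (2.81-fold, adjusted p = 8.1e-10) and by 1.06 ± 0.11 in KO high EF (2.08-fold, adjusted p = 3.6e-07). Within chips, where few hearts enter, it differed by 1.10 to 1.79 in KO low EF and by 0.81 to 1.58 in KO high EF. Between the knockout groups Sparc differed by 0.43 ± 0.13, short of the threshold (adjusted p = 0.063). That difference passed without KO low EF replicate 6 (adjusted p = 0.033) and without KO high EF replicate 8 (adjusted p = 0.0245). With the chip as a fixed block it was 0.37 ± 0.14 and did not pass (adjusted p = 0.279).

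The other Sparc probes did not all follow. Probe 2 ran from 12.02 to 13.08 in WT and from 13.82 to 14.15 in KO low EF, but fell to 6.18 in KO high EF replicate 11, where the other 6 hearts lay at 12.72 to 13.75. With that array probe 2 differed by 1.45 ± 0.71 in KO low EF (adjusted p = 0.157) and by -0.06 ± 0.68 in KO high EF (adjusted p = 0.968), and without it by 1.45 ± 0.14 (adjusted p = 3.7e-09) and 0.98 ± 0.14 (adjusted p = 8.8e-06). Probe 3 split every group: 6 WT, 4 KO high EF and 4 KO low EF hearts lay at 7.11 to 8.31, and 5, 3 and 2 lay at 9.04 to 10.95, with none between. The bright hearts of probe 3 were 5 of 6 on chip 1, 2 of 6 on chip 2, 1 of 6 on chip 3 and 2 of 6 on chip 4. Probe 4, which the platform names Smoc1, stayed at 6.78 to 7.31 and was not called in either group; without replicate 11 it was called in KO low EF (0.19 ± 0.07, adjusted p = 0.0327).

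**Figure D2:**
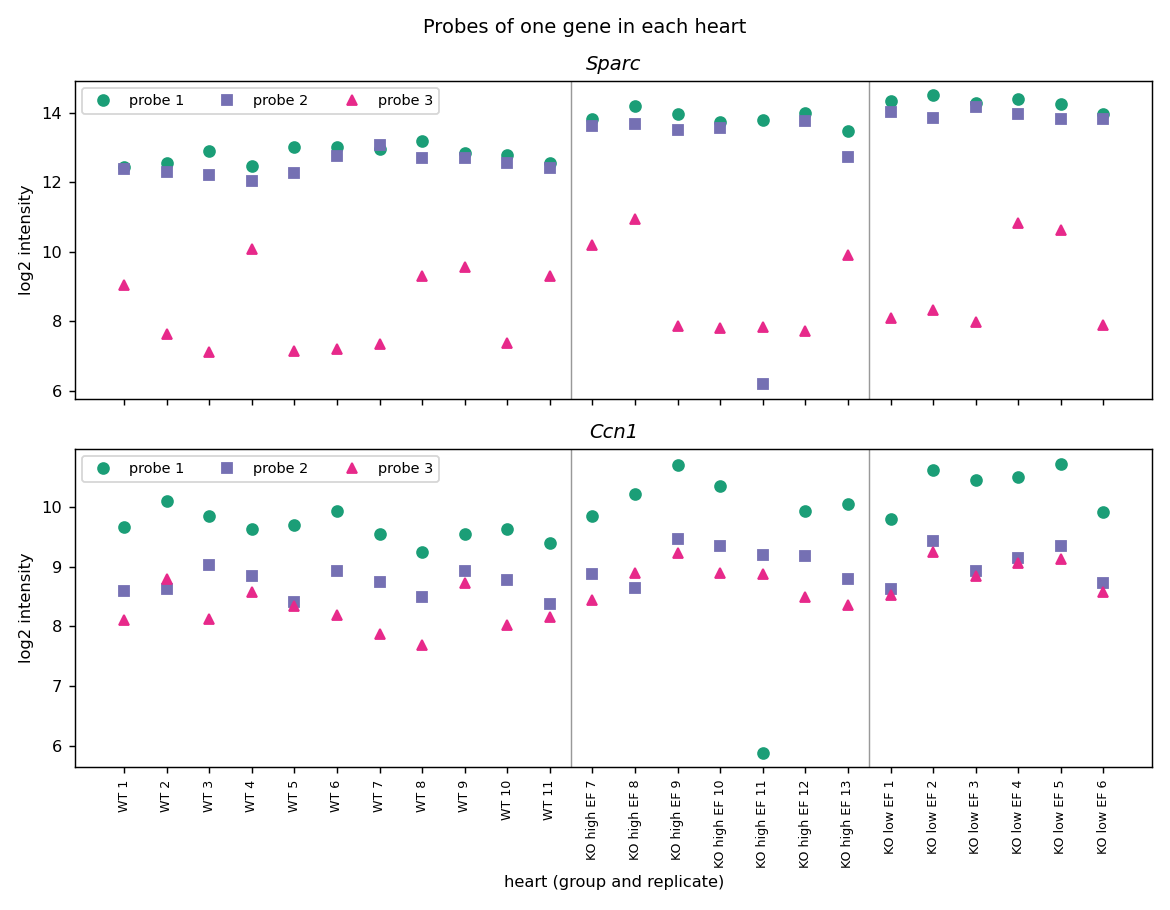
Log2 intensity (vertical axis) of probes 1 to 3 of Sparc and Ccn1 in each of the 24 hearts (horizontal axis, grey lines between groups). Sparc probe 3 falls into a lower band at 7.11 to 8.31 and an upper one at 9.04 to 10.95 in all groups, and replicate 11 of KO high EF drops to 6.18 for Sparc probe 2 and 5.89 for Ccn1 probe 1.

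The Sparc window, chr11:55420031-55420330 on the minus strand, is shown for its 2 SMAD matches, both on the reverse strand, at -36 and 14 from the start.
Sparc: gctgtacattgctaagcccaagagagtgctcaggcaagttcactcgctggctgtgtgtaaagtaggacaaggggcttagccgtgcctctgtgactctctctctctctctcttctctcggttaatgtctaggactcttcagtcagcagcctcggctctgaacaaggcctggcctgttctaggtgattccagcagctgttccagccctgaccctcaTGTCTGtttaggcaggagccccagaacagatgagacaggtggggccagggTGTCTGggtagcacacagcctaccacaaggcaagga

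Tenascin X (Tnxb, which organises collagen fibrils and is mostly present in resting connective tissue) had a small rise. Probe 1 ran from 10.60 through 10.77 to 10.94 in WT, from 11.00 through 11.20 to 11.82 in KO high EF and from 11.00 through 11.12 to 11.24 in KO low EF. On this probe all knockout hearts were above all WT hearts. Tnxb rose by 0.38 ± 0.09 in KO low EF (1.3-fold, adjusted p = 0.0024) and by 0.57 ± 0.09 in KO high EF (1.48-fold, adjusted p = 4.1e-05), and by 0.48 ± 0.07 in KO high EF without replicate 11, its highest heart. Within chips the Tnxb differences were 0.35 to 0.51 and 0.47 to 0.80.

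Probes 2 and 3 of Tnxb passed in both comparisons, at 0.39 and 0.40 in KO low EF and 0.55 and 0.62 in KO high EF. On probe 2, 5 of 6 KO low EF and 7 of 7 KO high EF hearts lay above all WT hearts. On probe 3, 4 of 6 KO low EF and 5 of 7 KO high EF hearts did. Probe 4 passed in KO high EF only (0.35 ± 0.10, adjusted p = 0.0216; 0.10 ± 0.11 in KO low EF), and its difference between the knockout groups did not pass (-0.25 ± 0.12, adjusted p = 0.327). Probes 5 and 6, near the array median, did not pass in either. Tnxb was the 1 gene of the 9 whose probe 1 was lower in KO low EF than in KO high EF, by -0.19 ± 0.10 (adjusted p = 0.383). In limma without replicate 11 this difference was -0.11 ± 0.08 (adjusted p = 0.609). With the chip as a fixed block it was -0.14 ± 0.10.

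Between KO low EF and KO high EF, 0 of 22 member probes passed, where 2.92% of all kept probes did. At an unadjusted p under 0.05 in limma, 5 of the 22 did and 14.4% of all kept probes did. The median difference of probe 1 over the 8 genes other than Postn was 0.36, with 7 of 8 positive.

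EF as a number was then fitted within the 13 knockout hearts, as the change in level per 10 EF points. The knockout groups were labelled by this same EF, so the slope overlaps with the comparison between them. All 24 arrays entered the fit, with a separate mean and slope for WT, so WT hearts also enter its estimate of spread. Sparc probe 1 was the 1 member probe that passed, with a slope of -0.14 ± 0.03 (adjusted p = 0.0084), where 1.46% of kept probes had a negative slope past the threshold. In the heart with the lowest EF (13.7%) Sparc was at 14.33, and in the knockout heart with the highest EF (76.4%) it was at 13.46. The slope of Sparc was -0.13 with the chip as a block (adjusted p = 0.0901) and -0.18 with median scaling (adjusted p = 0.145), so the call depends on both settings. Without replicate 11, probe 2 of Sparc also passed (-0.17 ± 0.03, adjusted p = 0.0032).

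Ccn2 probe 1 had a slope of -0.19 ± 0.06 that did not pass (adjusted p = 0.0787). This probe passed without WT replicate 4 (adjusted p = 0.0152) and without WT replicate 5 (adjusted p = 0.0441), and with array weights (adjusted p = 0.0139). With the chip as a fixed block its slope was -0.12 ± 0.07 (adjusted p = 0.59). Probe 2 of Ccn2 had a slope of -0.19 ± 0.08 (adjusted p = 0.187) and passed in 0 of 33 alternative settings. The slope of Tnc was 0.04 ± 0.10 and that of Tnxb 0.05 ± 0.03, neither past the threshold. Within WT 0 of 22 member probes passed (0.00393% of all kept probes), and 0 had slopes that differed between KO and WT (0% of all). At an unadjusted p under 0.05, 1 of 22 did in each of these, against 6.38% and 5.51% of all kept probes.

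**Figure D3:**
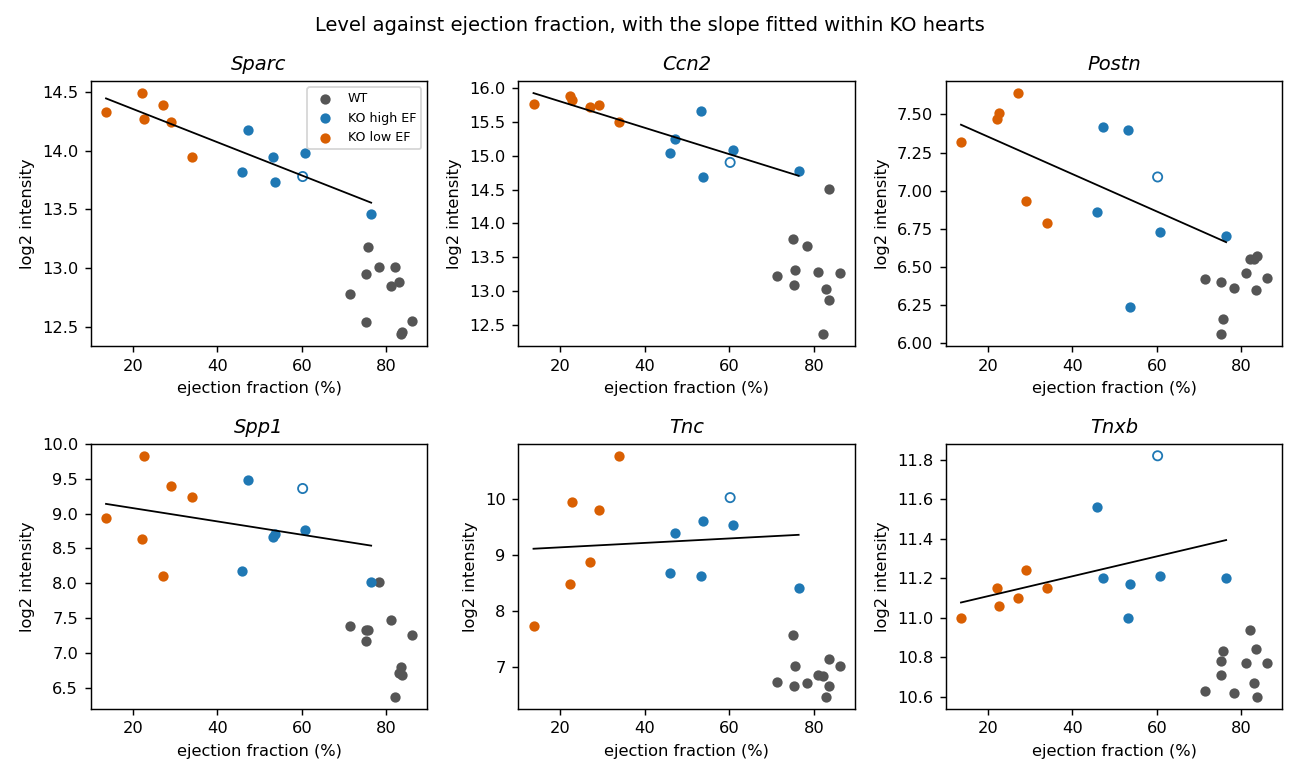
Log2 intensity of probe 1 (vertical axis) against ejection fraction (horizontal axis, %) for 6 genes in WT and both knockout groups; the line is the slope fitted within the 13 knockout hearts and the open circle is KO high EF replicate 11. The Sparc line falls by 0.14 per 10 points, while those of Tnc (0.04) and Tnxb (0.05) are nearly level.

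The members were alike across hearts mainly through the groups. Over the 36 pairs of the 9 genes, Spearman's rho over 24 arrays ran from 0.35 to 0.91 (median 0.70). After subtracting group means it ran from -0.44 to 0.56 (median 0.07). Both lowest values were those of Ccn1 with Ccn4, and Ccn1 probe 1 holds the 5.89 of KO high EF replicate 11. The pairs were not computed without that array. Sparc and Ccn2 were the most alike (0.91), and Tnc and Spp1 kept the highest value within groups (0.56). The arrays share groups, chips and normalization, so these are descriptions.

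By the same measure, the genes most like Ccn2 were Nppb (0.96), the stress-induced natriuretic peptide, Tnfrsf12a (0.95), the receptor of TWEAK, and Lrrc75a (0.95). Those most like Tnc were the tubulins Tubb2b (0.96) and Tubb6 (0.95) and the uridine-cytidine kinase Uck2 (0.95). For Sparc they were Ddah1, Gpc6 and Rras (0.95 each), and for Spp1 Csgalnact1 (0.93), Soat1 (0.92) and Ctsz (0.91), the lysosomal protease cathepsin Z. For Ccn5 they were Myh7 (0.89), the slow myosin heavy chain, Apod (0.88) and Pamr1 (0.87). For Ccn4 they were Nans (0.91), Bax (0.89) and Spcs3 (0.89), for Postn Fndc3b (0.90), Pls3 (0.89) and Chrnb1 (0.88), and for Tnxb Psat1 (0.91), Idh3b (0.89) and Limk2 (0.89). Without KO high EF replicate 11, 11 of these 24 neighbours were named again.

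Other genes of the pathways were counted from gene lists, with 15.1% of all measured genes called higher and 13.5% lower in KO low EF, and 10.7% and 6.49% in KO high EF. Of 10 other matricellular genes measured, 7 rose and 0 fell in KO low EF, and 5 rose in KO high EF. Follistatin-like 1 (Fstl1) rose by 2.22 ± 0.18 and 1.50 ± 0.17, matrix Gla protein (Mgp) by 1.37 ± 0.11 and 1.02 ± 0.11, and thrombospondin 3 (Thbs3) by 1.14 ± 0.11 and 0.76 ± 0.11. Tgfbi, an integrin ligand, rose by 0.77 ± 0.11 and 0.43 ± 0.10.

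Of 18 receptors of matricellular proteins, 7 rose and 3 fell in KO low EF, while KO high EF had 6 that rose and 0 that fell. Without replicate 11, 10 rose and 3 fell in KO low EF, and 6 rose and 2 fell in KO high EF. Cd44, which binds osteopontin, rose by 1.41 ± 0.15 and 0.88 ± 0.14. The integrin subunit Itga9, part of a tenascin C receptor, rose by 1.01 ± 0.11 and 0.70 ± 0.10, and Itgb5 by 0.98 ± 0.14 and 0.59 ± 0.14. Lrp1, an endocytic receptor that binds CCN2, rose by 0.87 ± 0.12 and 0.62 ± 0.11.

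The lists of TGF-beta and Hippo pathway genes differed in how many rose. These are RNA levels and do not measure the activity of a pathway. Whether either pathway drives the members was not tested. Of 16 TGF-beta ligands, receptors and SMADs, 8 rose and 0 fell in KO low EF and 4 rose in KO high EF. Without replicate 11, 10 rose in KO low EF, and 6 rose and 1 fell in KO high EF. The ligand Tgfb2 rose by 2.01 ± 0.20 and 1.26 ± 0.19, the receptors Tgfbr1 by 0.88 ± 0.10 and 0.37 ± 0.10 and Tgfbr2 by 0.67 ± 0.11 and 0.53 ± 0.11. Ltbp4, which binds latent TGF-beta, rose by 0.91 ± 0.11 in KO low EF and was at 0.30 ± 0.11 in KO high EF (adjusted p = 0.062). Of 13 Hippo pathway and TEAD genes, 1 rose in each comparison, Mob1a (0.39 ± 0.09 and 0.28 ± 0.09), and the kinase Stk4, its partner Sav1 and Tead4 did not pass (0.17, 0.15 and 0.09 in KO low EF). Without replicate 11, 4 Hippo genes rose in KO low EF, Stk4 and Sav1 among them, and 0 rose in KO high EF.

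Of 16 other genes of a YAP target signature, 8 rose and 1 fell in KO low EF, and 5 rose and 1 fell in KO high EF. Without replicate 11 those that rose were 11 and 7. Besides Tgfb2, which is in both lists, Myof rose by 1.15 ± 0.08 and 0.78 ± 0.08, the receptor kinase Axl by 1.12 ± 0.10 and 0.64 ± 0.09, and Rbms3 by 0.80 ± 0.09 and 0.43 ± 0.08. Of 8 SRF and MRTF regulators, 2 rose in each comparison, Rhoa (0.39 ± 0.09 and 0.40 ± 0.09) and Mrtfa (0.25 ± 0.07 and 0.24 ± 0.07). Srf itself was at 0.22 ± 0.11 and Myocd at -0.21 ± 0.11 in KO low EF, neither past the threshold.

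Of 12 fibrillar collagen and collagen assembly genes, 11 rose in KO low EF, 8 rose in KO high EF and 0 fell in either. Col1a1, the main chain of type I collagen, rose by 2.33 ± 0.14 and 1.75 ± 0.14, Col14a1 by 2.02 ± 0.19 and 1.35 ± 0.18, and Col5a2 by 1.67 ± 0.22 and 1.19 ± 0.21. Col12a1 rose by 1.46 ± 0.11 and 0.53 ± 0.10 and was higher in KO low EF than in KO high EF by 0.93 (adjusted p = 0.00033). Without replicate 11, 11 of the 12 rose in KO high EF.

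Markers of fibroblasts and macrophages moved with the groups, and their part in the members' differences was not tested. Fibroblast markers rose in 9 of 12 genes in KO low EF and 10 of 12 in KO high EF, and without replicate 11 in 11 of 12 in each. Their summed linear intensity was 46022 to 55847 in WT, 66436 to 89697 in KO high EF and 68653 to 102713 in KO low EF. Mfap5 rose by 3.23 ± 0.19 and 2.40 ± 0.18, Pi16 by 2.08 ± 0.16 and 1.56 ± 0.15, Col15a1 by 1.43 ± 0.12 and 1.01 ± 0.11, and Cd248 by 1.32 ± 0.10 and 0.89 ± 0.10. Of 9 activated fibroblast markers, 6 and 4 rose (6 and 5 without replicate 11), Loxl1 by 1.82 ± 0.14 and 1.30 ± 0.14 and Acta2 by 1.01 ± 0.18 and 0.78 ± 0.17, with sums of 14462 to 32627 in WT, 29863 to 50467 in KO high EF and 42968 to 55354 in KO low EF.

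Macrophage markers rose in 13 of 14 genes in both comparisons (14 of 14 without replicate 11), with sums of 12444 to 18201 in WT, 26259 to 37170 in KO high EF and 35316 to 44503 in KO low EF. Lgals3 rose by 3.10 ± 0.27 and 1.97 ± 0.26, Trem2 by 1.45 ± 0.13 and 1.23 ± 0.13, C1qb by 1.38 ± 0.11 and 1.22 ± 0.10, and the mannose receptor Mrc1 by 1.09 ± 0.10 and 1.10 ± 0.09. Endothelial markers passed limma's test in 0 of 10 genes in either comparison (1 at an unadjusted p under 0.05 in each), with sums of 24744 to 32570 in WT and 27080 to 33283 in KO low EF. Without replicate 11, Vwf rose (0.83) and Tie1 fell (-0.20) in KO low EF, and 1 endothelial marker fell in KO high EF. Of 9 smooth muscle and pericyte markers 1 rose (Acta2, which is also in the activated fibroblast list) and 2 fell in KO low EF, Abcc9 by -0.84 ± 0.11 and Smtn by -0.52 ± 0.12. Of 9 cardiomyocyte markers 1 rose (Myh7, 1.97 ± 0.28) and 2 fell (Tnni3, -0.59 ± 0.09, and Ryr2, -0.50 ± 0.07). Myh6, named here after its values were seen, was counted by its brighter probe, at 15.83 to 16.02, near the top of the scale. Its other kept probe differed by -1.01 ± 0.11 in KO low EF (adjusted p = 1.3e-07 in limma) and by -0.41 ± 0.10 in KO high EF (adjusted p = 0.0074). Of 8 atrial and valve markers 2 rose in KO low EF (Nppa, 1.25 ± 0.24, and Fmod, 1.15 ± 0.20). Fmod is also in the activated fibroblast list. The sums of the atrial and valve list varied widely in WT (13200 to 74854) and were 61993 to 66694 in KO low EF. Of 8 lymphocyte and blood markers 0 passed in KO low EF, also at an unadjusted p under 0.05. Without replicate 11, Pdgfrb (smooth muscle and pericyte list, named here after its values were seen) and Cytl1 (atrial and valve list) also rose in KO low EF, and Alas2 of the blood list fell.

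**Figure D4:**
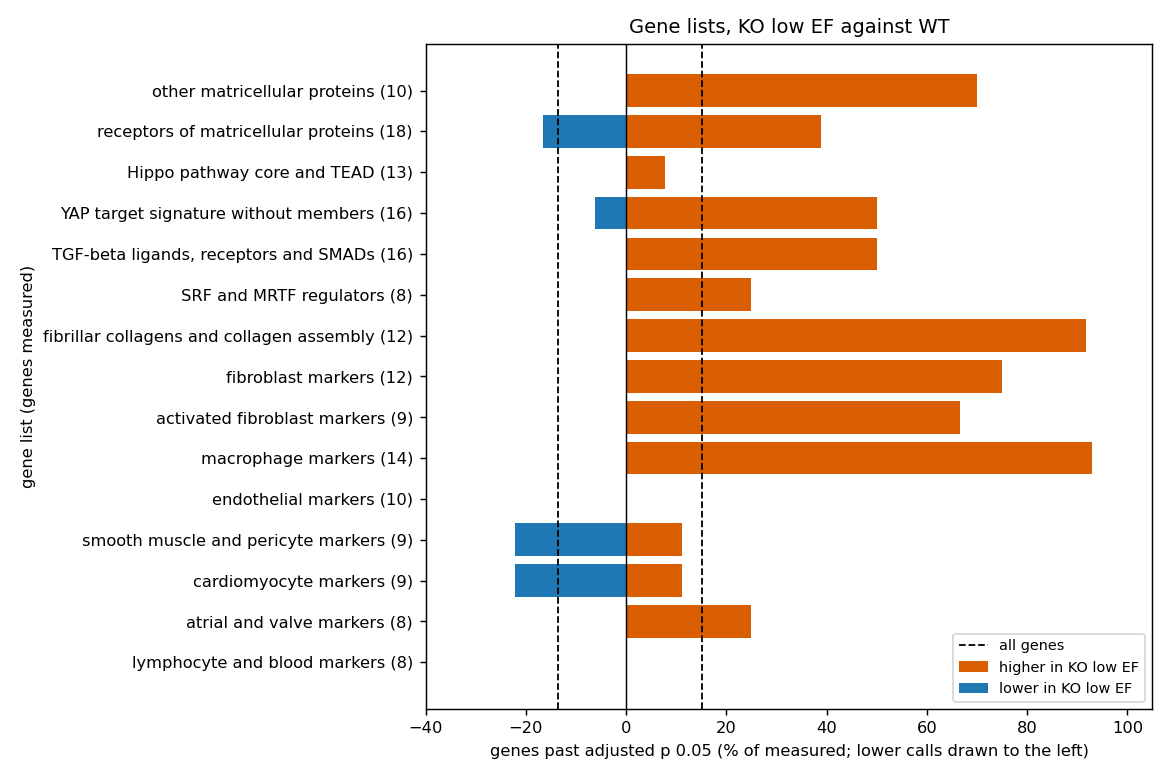
Share of the measured genes of each list (number in brackets, 1 probe per gene) past an adjusted p of 0.05 in KO low EF against WT (horizontal axis, %; higher to the right, lower to the left); dashed lines are the shares of all genes, 15.1% higher and 13.5% lower. Macrophage (13 of 14) and collagen (11 of 12) genes have the longest bars, and endothelial markers (0 of 10) none.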

How the data were processed

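Total RNA of 24 left ventricles was measured on 1 array each. The authors deposited unnormalized fluorescence intensity on a linear scale for 45281 probes, with no background setting stated. A second table deposited by the authors holds normalized log2 values, by a transformation that is not stated, which rank probes within each array as the intensities do. Their summary adds group means on that log2 scale, the authors' standard deviations (a unit other than a level) and the authors' p-value per probe, from a test they do not name. BeadStudio (no version given) and R 2.8.0 are named in the submitters' processing notes.

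Intensities were background-corrected (normexp, offset 50), log2-transformed and quantile-normalized with limma 3.58.1 in R 4.3.3, and 25425 probes above their array's median in at least 6 arrays were kept. Raw array medians were 106 to 155, and the number of arrays limits the precision. The platform's annotation named 34885 probes and 3985 more were named by the authors' summary, matched by its group means. The other 6411 had no single gene name, among them 18 with several. One fit with 3 group means (lmFit, eBayes, two-sided) gave the comparisons, a second fit gave slopes on EF per 10 points, and p-values were Benjamini-Hochberg adjusted over all kept probes at a threshold of 0.05. The procedure was tested on simulated data. The labels do not say whether hearts shared a litter.

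The members and the 16 gene lists were chosen with earlier results of these data known. Named genes were all members, up to 4 genes of each list with the smallest p in KO low EF against WT, and the 3 genes with the highest Spearman correlation to each called probe 1. Arrays whose labels share a prefix were taken as 1 chip, which no label states (4 chips, chip 4 without KO low EF). Hearts were not treated as paired by replicate number. Of 11 same-numbered pairs, 2 had deviations correlated over 0.1 (range -0.01 to 0.18). Differently numbered pairs were not compared, so this does not settle whether the numbers pair the hearts. Promoter sequences are from RefSeq. Alternatives were median scaling, no background correction, the authors' table, other filters, chip, age, array weights, the replicate block, only the groups compared and leaving out each heart. Python 3.11.15, pandas 2.3.3, NumPy 2.4.6, SciPy 1.17.1, matplotlib 3.10.9 and data.table (1.17.8) were used.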

Additional observations from a re-analysis of the deposited data

Results flagged for a closer look

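Of 44 groups of member probe values tested with Dixon's criterion, 4 held a heart far from the others, and chance flags about 1 in 20 groups. All 4 are KO high EF replicate 11, the array that stood apart. Its value was 5.89 for Ccn1 probe 1, where the nearest heart of the group was at 9.85, and 6.18 for Sparc probe 2, where the nearest was at 12.72. It was 11.49 for Tnxb probe 3 (nearest 10.78) and 8.26 for Tnxb probe 4 (nearest 7.62). The array was low on the first 2 probes and high on the other two.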

How the results depend on the processing

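The counts of member probes in this section include the kept Postn probes, which had to differ from WT. The 14 member probes higher in KO low EF against WT became 4, 7 and 4 within chips 1, 2 and 3, where few hearts enter, and 13 to 17 leaving out 1 heart at a time. The 15 of KO high EF became 2, 0, 0 and 7 within chips 1 to 4, 7 with the replicate number as a block, and 13 to 17 leaving out 1 heart. The 16 of both knockout groups together became 9, 7 and 1 within chips 1 to 3, and 14 to 19 leaving out 1 heart. For KO low EF against KO high EF, the count of 0 became 1 with the authors' table, 1 with the filter on every array of a group, 4 with array weights, and 0 to 2 leaving out 1 heart (2 without WT replicate 4, 1 without KO low EF replicate 6, 1 without KO high EF replicate 8). For the slope within KO, the count of 1 became 0 with median scaling, 0 with the chip as a fixed block, 5 with array weights, and 1 to 2 leaving out 1 heart (2 without WT replicate 4, WT replicate 5 or KO high EF replicate 11). The slopes within WT and their difference stayed at 0 in every setting run. Whether the replicate numbers pair the hearts is not settled. With the replicate number as a block, 16 and 15 probes were called for KO low EF and for both groups. The 81 list genes called in KO low EF became 100 without KO high EF replicate 11. The median correlation of the named neighbours, 0.910, was 0.663 on deviations from group means and 0.910 without that array. Of results called in either setting, directions reversed for Ccn1 probe 1 in KO high EF (0.46 with array weights, -0.27 to 0.53 leaving out 1 heart, the highest without replicate 11), Sparc probe 2 in KO high EF (0.90 with array weights, -0.28 to 0.98 likewise), and Sparc probe 4 in both knockout groups together within chip 2 (-0.0473). Apart from the replicate 11 results, where the array itself is left out or weighted down, the cause was not tested. Over single probes and settings, 3729 results kept direction and side of the threshold, 142 lost a call, 60 gained one and 5 reversed with a call. Another 89, called in neither setting, changed sign; they belong to 35 of the 110 comparisons of single probes, among them Tnc probe 1 between the knockout groups (-0.21 to 0.40), Tnc probe 2 (-0.43 to 0.12), Ccn1 probe 2 (-0.12 to 0.15) and Sparc probe 3 (-0.32 to 0.39) there. Within chip 4, KO low EF could not be compared. Dim probes (Ccn3, Postn and most of Tnc) limit what the array can show.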
